A study of Mus musculus with 6 samples.

Results

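The receptor subunits that bind glutamate, GABA and glycine were examined in the retina of mice lacking Vldlr and of wild-type mice. Members were taken by platform gene symbol: the AMPA (Gria), NMDA (Grin), kainate (Grik) and metabotropic (Grm) glutamate receptors, the GABA-A, GABA-A rho and GABA-B receptors (Gabr, Gabbr) and the glycine receptors (Glra, Glrb). The rule selected 41 genes of the 19057 that the array names singly, and these genes carried 85 of the 45281 probes. Vldlr, the gene of the very low density lipoprotein receptor, encodes a lipoprotein and reelin receptor, and mice without it are known for abnormal vessel growth under the retina. The knockout group held 3 arrays of Vldlr KO retina and the wild-type group 3 arrays of Jax WT retina, each of total RNA on an Illumina BeadChip. The labels give JAX as the background strain of both groups and give no age, sex or treatment. Nothing in them says that the arrays of a group stand for different mice, and p-values then measure array-to-array spread that may be only technical. Subunits of these families outside the 41 genes were not analysed here.

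Fast excitation in the retina runs through AMPA, kainate and NMDA receptors, which are cation channels built from several subunits, whereas metabotropic glutamate receptors signal through G proteins. Photoreceptors and bipolar cells release glutamate onto these receptors. Amacrine cells release GABA or glycine, which open the chloride channels of GABA-A, GABA-A rho and glycine receptors, and GABA-B receptors again signal through G proteins.

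Each array detected between 41.3% and 46.3% of all probes and between 38 and 44 of the 85 receptor probes, where detected means a detection p-value under 0.05 in the authors' table. The brightest Vldlr probe, ILMN_2796472, read 10.16, 10.22 and 10.41 on knockout arrays, against 11.31, 11.33 and 11.68 on wild-type arrays, on the log2 normalised intensity scale used for every probe level below. It fell by 1.17 (SE 0.179, limma adjusted p = 0.00946) to 44.3% of the wild-type level, and the brightest 3 of the 5 Vldlr probes tested passed the threshold. Without knockout replicate 1 or knockout replicate 2 the adjusted p of this probe was 0.0719 or 0.0724. As a check of the tissue, all 6 matched rod markers, all 6 cone markers and all 6 matched bipolar markers were detected on 6 arrays, as were 9 of 10 amacrine markers and 7 of 9 matched ganglion cell markers. RNA of lens and blood was also present. Marker sums, here and below, are linear sums of the authors' normalised intensities over all probes of a list, with negative values left out. Those intensities are the raw ones less a constant for each array (57.2 to 69.1), so the sums are not scaled between arrays. The summed signal of 9 matched lens markers was 26724 on knockout array 1 and 1517 and 2592 on the other knockout arrays, against 630 to 4845 on wild-type arrays. That of 5 matched red blood cell markers was 40308 to 59115 on knockout and 30455 to 63351 on wild-type arrays, but 8 of their 13 probes had an unadjusted limma p under 0.05, in both directions. An Hbb-bs and an Hbb-bt probe were lower in the knockout (-3.94 and -0.91, limma adjusted p = 0.000266 and 0.0345), while 8 of the 13 differences were positive. That Hbb-bt probe, detected on 0 knockout and 3 wild-type arrays, entered the test through the wild-type arrays alone. An Hbb-b2 probe, detected on 3 knockout and 0 wild-type arrays, entered through the knockout arrays alone. The filter fixed both directions, so the values of these probes are a description only.

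The share of probes above background is given by class as a description, with no test. Of the 85 probes, 32 (37.6%) were detected on all 6 arrays, 20 on 1 to 5 arrays and 33 (38.8%) on none, beside 35.1% of all probes on 6 arrays and 44.3% on none. AMPA receptors had 9 of 14 probes on all 6 arrays and 2 on none, and rho receptors 3 of 4 on all and 0 on none. Kainate receptors had 5 of 13 on all arrays and 4 on none, and metabotropic glutamate receptors 5 of 12 and 6. GABA-A receptors had 6 of 22 on all arrays and 11 on none. The counts on all arrays and on none were 2 and 5 of 9 for NMDA, 1 and 2 of 3 for GABA-B, and 1 and 3 of 8 for glycine receptors.

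**Figure D1:**
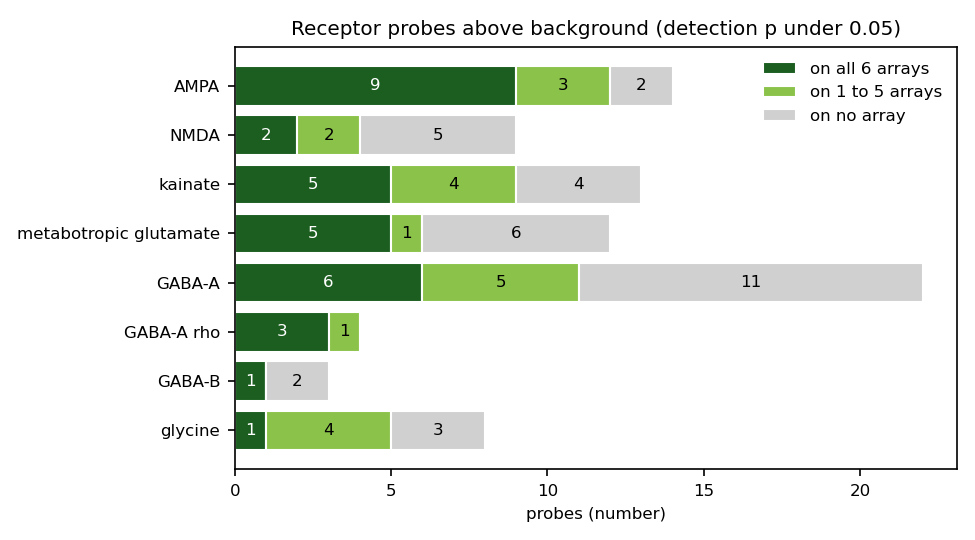
Number of probes (x axis) by receptor class (y axis), split by whether the probe was detected on all 6 arrays, on 1 to 5 arrays or on none. AMPA receptors had 9 of 14 probes on all 6 arrays, whereas GABA-A receptors had 11 of 22 on none.

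Every probe of 9 member genes stayed below detection on all 6 arrays. These were Grin2a, Grin2c and Grin2d, which encode glutamate-binding GluN2 subunits, the kainate subunit gene Grik3, the metabotropic receptor gene Grm3, the GABA-A subunit genes Gabra5, Gabra6 and Gabrb2, and Gabbr2, the partner that GABBR1 needs at the cell surface. A further 5 genes were detected on 2 or fewer arrays by any probe, namely Gabra4, Gabrp, Gabrq, Glra3 and Glra4. A probe not detected bounds the signal of that probe and not the expression of the gene. The difference between groups was therefore tested for 41 probes of the other 27 genes, each detected on at least 3 of 6 arrays, within a fit over 19921 probes.

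One receptor probe passed the test, a Grin2b probe that was lower in the knockout. This is 1 of 41 probes, and over all tested probes 2.18% passed, 0.653% higher and 1.53% lower in the knockout. At an unadjusted p under 0.05 there were 4 of 41 receptor probes (9.76%), beside 11.7% of all tested probes. The knockout and wild-type arrays did not overlap for 9 of 41 probes (22%, 6 higher and 3 lower in the knockout), beside 18.1% of all tested probes, 9.28% higher and 8.84% lower. One of the higher ones, a dim Grik1 probe, entered the test through the knockout arrays alone. Neither share sets the receptors apart from the array as a whole. The median difference, knockout minus wild-type, was 0.09 over the 41 probes and 0.03 over all tested probes, with 23 positive and 18 negative receptor values.

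Most receptor differences were bounded as well as not called. For 32 of 41 probes (78%) the whole 95% confidence interval lay within 2-fold in both directions, beside 82% of all tested probes. That held for 10 of 10 AMPA, 2 of 3 NMDA, 6 of 8 kainate, 4 of 5 metabotropic, 6 of 7 GABA-A, 3 of 4 rho, 0 of 1 GABA-B and 1 of 3 glycine receptor probes. The count depended on the input and on single arrays. It was 17 of 41 on the authors' normalised table (41.5%, beside 58% of all tested probes) and 39 of 41 with quantile normalisation of raw signal (95.1%, beside 93.5%). Without knockout replicate 1 it was 21 of 40 (52.5%, beside 72.5%). It was 24 of 38 without knockout replicate 2 (63.2%, beside 71.4%) and 26 of 41 without wild-type replicate 1 (63.4%, beside 71.4%). Class medians of the difference were 0.27 for AMPA, 0.18 for rho, 0.10 for kainate, 0.09 for NMDA, -0.06 for GABA-A, -0.10 for glycine, -0.12 for metabotropic glutamate and -0.31 for GABA-B receptors. The 1 probe past the threshold was of the NMDA class.

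**Figure D2:**
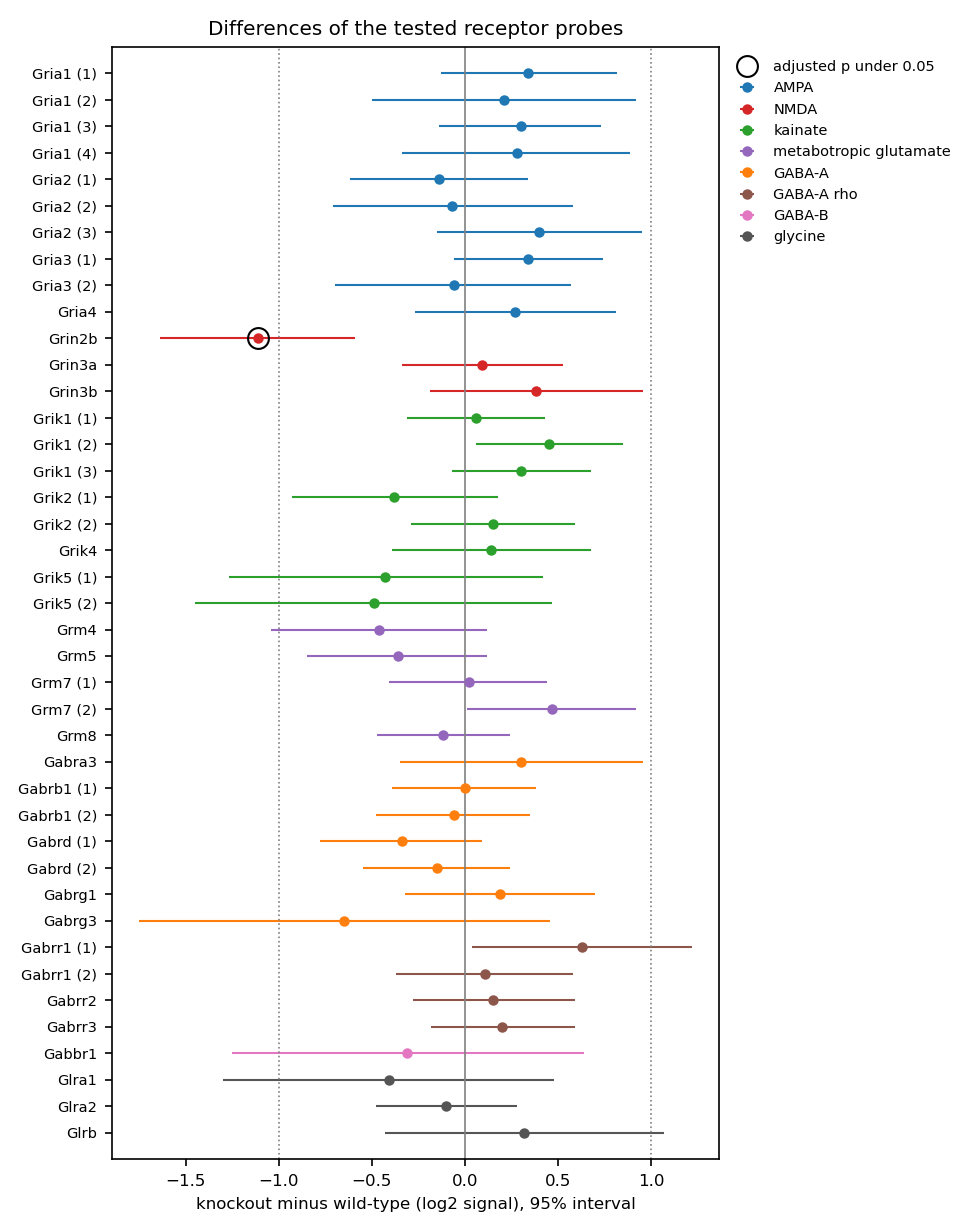
Difference in log2 intensity, knockout minus wild-type (x axis), with its 95% confidence interval for each of the 41 tested receptor probes (y axis), grouped by class. The Grin2b probe at -1.11 is the one that passed the threshold, and 32 intervals lie within 2-fold in both directions.

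NMDA receptors need glutamate-binding GluN2 subunits, and Grin2b encodes one of them. Its probe ILMN_2547237 read 5.61, 5.63 and 5.80 on knockout arrays, against 6.71, 6.41 and 7.27 on wild-type arrays. All 3 knockout arrays lay below the lowest wild-type array. The means were 5.68 ± 0.105 in the knockout and 6.79 ± 0.435 in wild-type (SD, n = 3 each), so the probe fell by 1.11 (SE 0.231, 95% interval -1.64 to -0.59) to 46.3% of the wild-type level, with a limma adjusted p of 0.0472. The sign was the same in 18 of 18 alternative settings, but the call was lost in 11 of them. The sign could not change where only the filter, probe choice, variance model or threshold differed, since the difference there was the same -1.11. At the looser threshold of 0.10 the call could not be lost either. The limma adjusted p ran from 0.00793 to 0.395. The difference lay between -1.34, on the authors' normalised table, and -0.61, with median scaling. Leaving out knockout replicate 1, knockout replicate 2, knockout replicate 3 or wild-type replicate 1 gave adjusted p-values of 0.207, 0.205, 0.144 and 0.103.

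A second Grin2b probe, ILMN_2617352, was too dim to test, with 0 of 3 knockout and 2 of 3 wild-type arrays above detection. It read 4.53, 4.42 and 4.61 on knockout arrays, against 5.09, 4.44 and 4.73 on wild-type arrays, and the groups overlapped. The remaining Grin2b probe was detected on no array. The lower Grin2b value thus rests on 1 probe. Probe sequences were not used here and the labels do not say whether the groups were littermates, so for this probe a difference in target sequence and one in RNA level cannot be told apart. Since whole retina was measured, fewer cells of a type and less RNA per cell cannot be told apart.

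Markers of other cell types were set beside the Grin2b value, beginning with ganglion and amacrine cells, which are inner retinal neurons. Over 9 matched ganglion cell markers the summed signal was 14360 to 19064 on knockout and 15097 to 19672 on wild-type arrays, with Nefl and Pou4f3 detected on none. Of 15 tested ganglion marker probes 1 was lower in the knockout, for Sncg (-1.84, limma adjusted p = 0.00103), while the other Sncg probe differed by 0.46 in the opposite direction (adjusted p = 0.502). None of 21 tested amacrine marker probes passed in limma, 0 of them at an unadjusted p under 0.05, and their summed signal was 22674 to 33080 on knockout and 23147 to 24714 on wild-type arrays. Both sums overlapped between the groups, but they were not scaled between arrays. Among knockout arrays both rose from array 1 to array 3, as did the rod marker sum (64010, 69206 and 95142). The part of array brightness in these ranges was not tested. Among other cell types, 3 of 8 tested cone marker probes were higher in the knockout, for Arr3 (1.42 and 0.91, limma adjusted p = 0.00215 and 0.0187) and Gnat2 (0.95, adjusted p = 0.0491). The cone list was split, with 4 positive and 4 negative differences. Summed cone signals were 14965 to 18344 on knockout and 14082 to 16282 on wild-type arrays. None of 10 tested microglia marker probes was called by limma, but 8 had negative differences and 3 an unadjusted p under 0.05, with sums of 330 to 554 on knockout and 552 to 722 on wild-type arrays. The part of these cell types in the Grin2b value, and in the Grik1 values given later, was not tested.

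Genes beside Grin2b on chromosome 6 also held differences; this window was chosen after the Grin2b value was seen, and the genes named in it after theirs. Among 28 tested probes of the 10 nearest tested genes on each side, 5 passed the limma threshold (17.9%, beside 2.18% of all tested probes), 2 higher and 3 lower in the knockout. The higher ones were Gpr19 (1.15, adjusted p = 0.00836) and Hebp1 (0.97, adjusted p = 0.0392). The lower ones were both Atf7ip probes (-1.24 and -1.01, adjusted p = 0.0081 and 0.0332) and 1 of 3 H2aj probes (-3.69, adjusted p = 3.01e-05). That H2aj probe was detected on 0 knockout and 3 wild-type arrays and so entered the test through the wild-type arrays alone. The filter fixed its direction, and its place among the 5 is a description only. The other H2aj probes differed by -1.02 and -0.71 (adjusted p = 0.0556 and 0.11). The median difference over the 28 probes was -0.16. What these neighbours have to do with the Grin2b value was not tested.

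The GluN3 subunits, which bind glycine rather than glutamate, showed no called difference. Grin3a read 9.18, 9.32 and 8.83 on knockout arrays, against 9.17, 9.05 and 8.83 on wild-type arrays, a difference of 0.09 (95% interval -0.34 to 0.53, limma adjusted p = 0.887). The groups overlapped almost fully. The deposited accession of this probe is not a RefSeq transcript of Grin3a. Grin3b read 5.45, 5.49 and 5.16 on knockout arrays, against 5.37, 5.14 and 4.43 on wild-type arrays, where wild-type array 3 was the low one (0.38, adjusted p = 0.598).

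**Figure D3:**
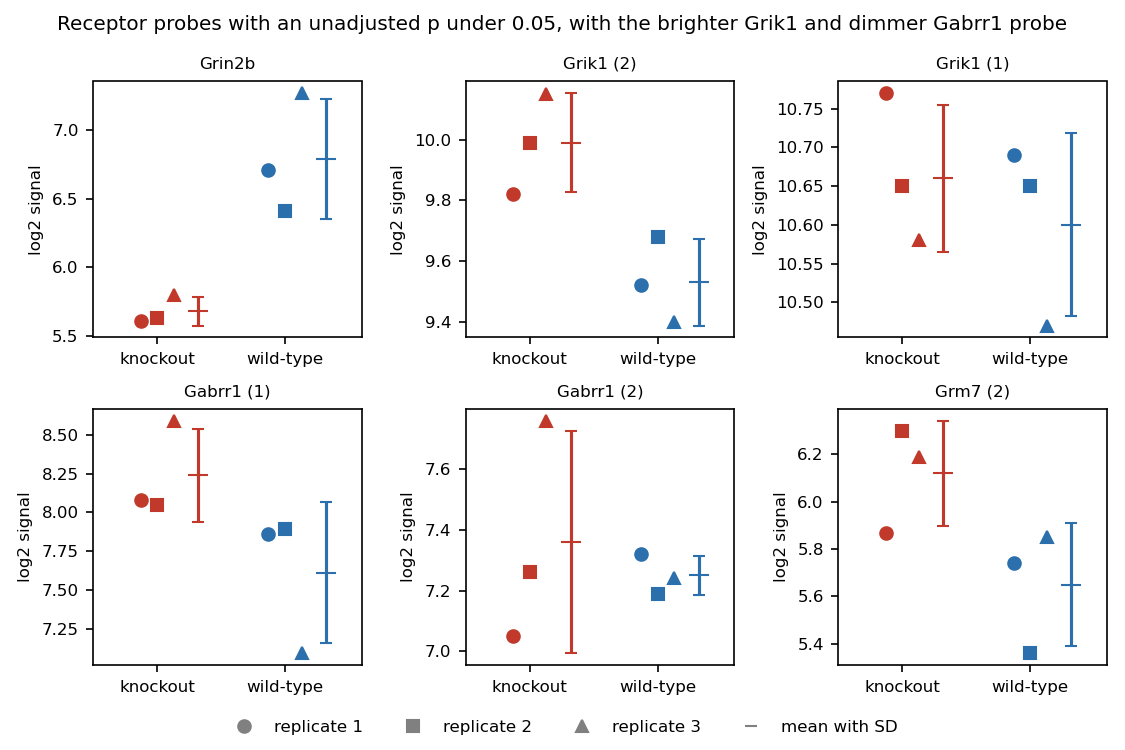
Log2 normalised intensity (y axis, its own range in each panel) of 6 receptor probes by group (x axis), with 1 point per array and bars for the mean with SD; (1) is the brighter and (2) the next tested probe of a gene. Groups do not overlap for Grin2b, Grik1 (2), Gabrr1 (1) and Grm7 (2), and they overlap for Grik1 (1) and Gabrr1 (2).

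AMPA receptors carry most fast excitatory transmission, and none of their 10 tested probes was called by limma (0 at an unadjusted p under 0.05). The 4 probes of Gria1, which encodes GluA1, differed by 0.34, 0.21, 0.30 and 0.28, all positive, with limma adjusted p-values of 0.569 to 0.837. Its brightest probe read 8.83, 9.01 and 9.04 on knockout arrays, against 8.90, 8.74 and 8.22 on wild-type arrays. Wild-type array 3 was the lowest of the 6, and the groups overlapped.

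Gria2 encodes GluA2, the subunit that makes AMPA receptors poorly permeable to calcium, and its probes did not share a sign. The brightest read 10.07, 10.09 and 9.59 on knockout arrays, against 9.82, 10.05 and 10.32 on wild-type arrays (-0.14, adjusted p = 0.831). The others differed by -0.07 and 0.40 (adjusted p = 0.952 and 0.557), so that no direction can be given for the gene. Their intervals, -0.71 to 0.58 and -0.15 to 0.95, lay inside 2-fold.

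The brighter probe of Gria3, which encodes GluA3, was the one AMPA receptor probe whose groups did not overlap. It read 7.21, 7.28 and 7.48 on knockout arrays, against 6.86, 7.20 and 6.89 on wild-type arrays. Knockout array 1 and wild-type array 2 were only just apart, and the difference of 0.34 (SE 0.177) had a limma adjusted p of 0.499. The other tested Gria3 probe differed by -0.06 (adjusted p = 0.953). Gria4, encoding GluA4, was detected on 2 knockout arrays and 1 wild-type array and differed by 0.27 (adjusted p = 0.704).

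None of 8 tested kainate receptor probes was called by limma, and 1 had an unadjusted p under 0.05. Grik1 encodes GluK1, a subunit used by OFF bipolar cells at their cone contacts. Its brightest probe, ILMN_1243701, read 10.77, 10.65 and 10.58 on knockout arrays, against 10.69, 10.65 and 10.47 on wild-type arrays. The groups overlapped, with a difference of 0.06 (95% interval -0.31 to 0.43, limma adjusted p = 0.911). The next probe, ILMN_1222061, read 9.82, 9.99 and 10.15 on knockout arrays, against 9.52, 9.68 and 9.40 on wild-type arrays. Every knockout array lay above every wild-type array, and the difference was 0.45 (SE 0.174, 95% interval 0.06 to 0.85), with a limma p of 0.0289 and a limma adjusted p of 0.342. The 6 matched bipolar cell markers gave summed signals of 17130 to 21070 on knockout and 16299 to 18518 on wild-type arrays. Of their 12 tested probes 0 were called by limma and 2 had an unadjusted p under 0.05. Of the differences 10 were positive and 2 negative, with a median of 0.19. The part of these markers in the Grik1 value was not tested.

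A dim Grik1 probe, ILMN_1246714, was detected on 3 of 3 knockout and 0 of 3 wild-type arrays. It read 4.86, 5.13 and 5.12 on knockout arrays, against 4.76, 4.77 and 4.67 on wild-type arrays, with means of 5.04 and 4.74. Set against the dimmest detected signal of each wild-type array, the knockout mean was at least 1.17-fold higher. The probe passed the detection filter through the knockout arrays alone, so the filter fixed this direction and it is a description only; the 95% interval of the difference was -0.07 to 0.68. Its deposited accession is not a RefSeq transcript of Grik1. The other 4 Grik1 probes were detected on at most 1 array.

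Grik2, encoding GluK2, had probes of opposite sign. One read 6.84, 6.98 and 6.15 on knockout arrays, against 7.06, 7.22 and 6.81 on wild-type arrays, where knockout array 3 was lowest and the groups overlapped (-0.38, limma adjusted p = 0.593). The deposited accession of this probe is not a RefSeq transcript of Grik2. The dimmer Grik2 probe differed by 0.15 (adjusted p = 0.804). Grik4, which encodes GluK4, differed by 0.14 (adjusted p = 0.851).

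For Grik5, which encodes GluK5, a subunit that works only together with GluK1 to GluK3, both probes followed wild-type array 1. The brighter read 6.13, 6.70 and 6.71 on knockout arrays, against 6.01, 7.47 and 7.35 on wild-type arrays, and the dimmer read 5.52, 5.75 and 6.29 on knockout arrays, against 5.27, 6.99 and 6.77 on wild-type arrays. In both cases wild-type array 1 was the lowest of all 6 and the other wild-type arrays the highest. The differences were -0.43 and -0.49, with intervals of -1.27 to 0.42 and -1.45 to 0.47 that reach past 2-fold. They were -0.89 and -1.04 without wild-type replicate 1 (limma adjusted p = 0.139 and 0.126), -0.16 and -0.16 without wild-type replicate 2, and -0.23 and -0.29 without wild-type replicate 3. Leaving out knockout replicate 1 gave -0.24 and -0.33.

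Metabotropic glutamate receptors had no called probe among 5 tested by limma (1 at an unadjusted p under 0.05). Grm4 encodes a presynaptic group III receptor and read 7.33, 7.49 and 7.55 on knockout arrays, against 7.44, 7.86 and 8.46 on wild-type arrays. The groups overlapped through wild-type array 1, and the difference was -0.46 (limma adjusted p = 0.522). Without wild-type replicate 3 it was -0.19 and without wild-type replicate 1 it was -0.70. Grm5, a group I receptor that raises intracellular calcium, read 6.57, 6.57 and 6.0 on knockout arrays, against 6.53, 6.92 and 6.78 on wild-type arrays, again overlapping (-0.36, adjusted p = 0.549).

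Grm7 and Grm8 are further group III receptors. The brighter Grm7 probe read 8.65, 8.59 and 8.41 on knockout arrays, against 8.75, 8.60 and 8.26 on wild-type arrays, with a difference of 0.02 (95% interval -0.41 to 0.44). The dimmer probe, ILMN_2872782, read 5.87, 6.30 and 6.19 on knockout arrays, against 5.74, 5.36 and 5.85 on wild-type arrays. Its groups were separated by the narrow gap between knockout array 1 and wild-type array 3, and its difference of 0.47 had a limma p of 0.0466 before and 0.412 after adjustment. Grm8 read 7.39, 7.49 and 7.48 on knockout arrays, against 7.65, 7.57 and 7.5 on wild-type arrays: the groups did not overlap, yet the difference of -0.12 (95% interval -0.47 to 0.24) was small.

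GABA-A receptor subunits outside the rho family had 7 tested probes, none called by limma (0 at an unadjusted p under 0.05). Gabra3, which encodes the alpha3 subunit, read 6.69, 7.12 and 6.90 on knockout arrays, against 7.10, 5.94 and 6.76 on wild-type arrays, where wild-type array 2 was low (0.30, limma adjusted p = 0.729). Both probes of Gabrb1, for the beta1 subunit, were close between groups, at 0.00 (95% interval -0.39 to 0.38) and -0.06 (-0.48 to 0.35). Gabrg1, for the gamma1 subunit, differed by 0.19 (adjusted p = 0.783).

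Gabrd encodes the delta subunit, found in extrasynaptic GABA-A receptors. Its brighter probe read 7.25, 7.45 and 7.43 on knockout arrays, against 7.61, 8.04 and 7.51 on wild-type arrays. No knockout array reached the lowest wild-type array, and the difference was -0.34 (95% interval -0.78 to 0.09, limma adjusted p = 0.525). The dimmer probe differed by -0.15 (adjusted p = 0.778).

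The probe of Gabrg3, for the gamma3 subunit, had the widest interval of all tested receptor probes. It read 5.0, 5.31 and 5.33 on knockout arrays, against 4.79, 5.66 and 7.12 on wild-type arrays, and wild-type array 3 stood apart. The difference of -0.65 (95% interval -1.75 to 0.46) was -0.02 without wild-type replicate 3 and -1.19 without wild-type replicate 1. Its deposited accession is not a RefSeq transcript of Gabrg3.

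The GABA-A rho subunits form receptors of bipolar cell terminals, and all 4 of their tested probes had positive differences, none called by limma (1 at an unadjusted p under 0.05). For Gabrr1, encoding rho1, the brighter probe ILMN_1217502 read 8.08, 8.05 and 8.59 on knockout arrays, against 7.86, 7.89 and 7.09 on wild-type arrays. The groups did not overlap, although wild-type array 3 accounted for most of the wild-type spread. Its difference of 0.63 (SE 0.261, 95% interval 0.04 to 1.22) was the highest among the receptor probes, with a limma p of 0.0398 before and 0.391 after adjustment. It was 0.37 without wild-type replicate 3 and 0.46 without knockout replicate 3 (limma adjusted p = 0.481 and 0.672). The other Gabrr1 probe read 7.05, 7.26 and 7.76 on knockout arrays, against 7.32, 7.19 and 7.24 on wild-type arrays, with overlapping groups (0.11, adjusted p = 0.879). Gabrr3, encoding rho3, read 6.88, 6.96 and 6.85 on knockout arrays, against 6.84, 6.49 and 6.74 on wild-type arrays, just without overlap (0.20, adjusted p = 0.685). Gabrr2, for rho2, differed by 0.15 (adjusted p = 0.797).

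Gabbr1 encodes the GABA-binding subunit of the GABA-B receptor. It read 5.99, 6.09 and 6.91 on knockout arrays, against 6.08, 6.21 and 7.62 on wild-type arrays. Array 3 was the high one in both groups, and the difference of -0.31 (95% interval -1.25 to 0.64, limma adjusted p = 0.812) became 0.19 without wild-type replicate 3.

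Glycine receptors had 3 tested probes, none called by limma (0 at an unadjusted p under 0.05). Glra2, for the alpha2 subunit, read 9.40, 9.29 and 9.61 on knockout arrays, against 9.58, 9.49 and 9.53 on wild-type arrays, an overlap with a difference of -0.10 (95% interval -0.48 to 0.28). Glra1, for alpha1, was detected on 1 knockout and 2 wild-type arrays and read 4.61, 4.70 and 5.18 on knockout arrays, against 4.48, 5.05 and 6.20 on wild-type arrays (-0.41, limma adjusted p = 0.727). Glrb, for the beta subunit that anchors the receptor to gephyrin, was detected on 2 knockout arrays and 1 wild-type array and differed by 0.32 (adjusted p = 0.755). The intervals of Glra1 and Glrb, -1.30 to 0.48 and -0.43 to 1.07, both reach past 2-fold.

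Where a gene had several tested probes, their signs were compared as a description only. There were 10 such genes with 24 probes, and the brightest probe was compared with each other probe of its gene, giving 14 pairs, of which 11 had the same sign. These include a pair with the dim Grik1 probe, whose direction the detection filter fixed. They also include the Gria1 pairs, which share 1 bright probe, and a Gabrb1 pair whose brighter probe differed by 0.00. The share of same-sign pairs over the whole array was not computed. The change in the within-array difference between the probes, knockout minus wild-type, left the groups without overlap in 3 pairs: Grik1 (-0.39), Grik2 (-0.52) and Gabrr1 (0.52). Each had a two-sided exact permutation p of 0.1, the smallest that 3 arrays against 3 allow, and 0.467 after Benjamini-Hochberg adjustment over the 14 pairs. With this number of arrays the test could not reach 0.05, so these values are a description. The share of same-gene pairs without overlap was not computed over the whole array, so the 3 pairs are not set apart from it.

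Spread within a group was a limit for many subunits. The median SD over the 41 probes was 0.209 in the knockout and 0.259 in wild-type, and the wild-type SD was the larger for 25 of 41 (61%, beside 66.6% of all tested probes). Knockout array 3 gave the highest value for 11 receptor probes (26.8%, beside 18.3% of all tested probes). Wild-type array 1 gave the lowest for 12 (29.3%, beside 13.6% of all tested probes). Wild-type array 3 was the highest for 9 (22%, beside 20.3% of all tested probes) and the lowest for 11 (26.8%, beside 30%).

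**Figure D4:**
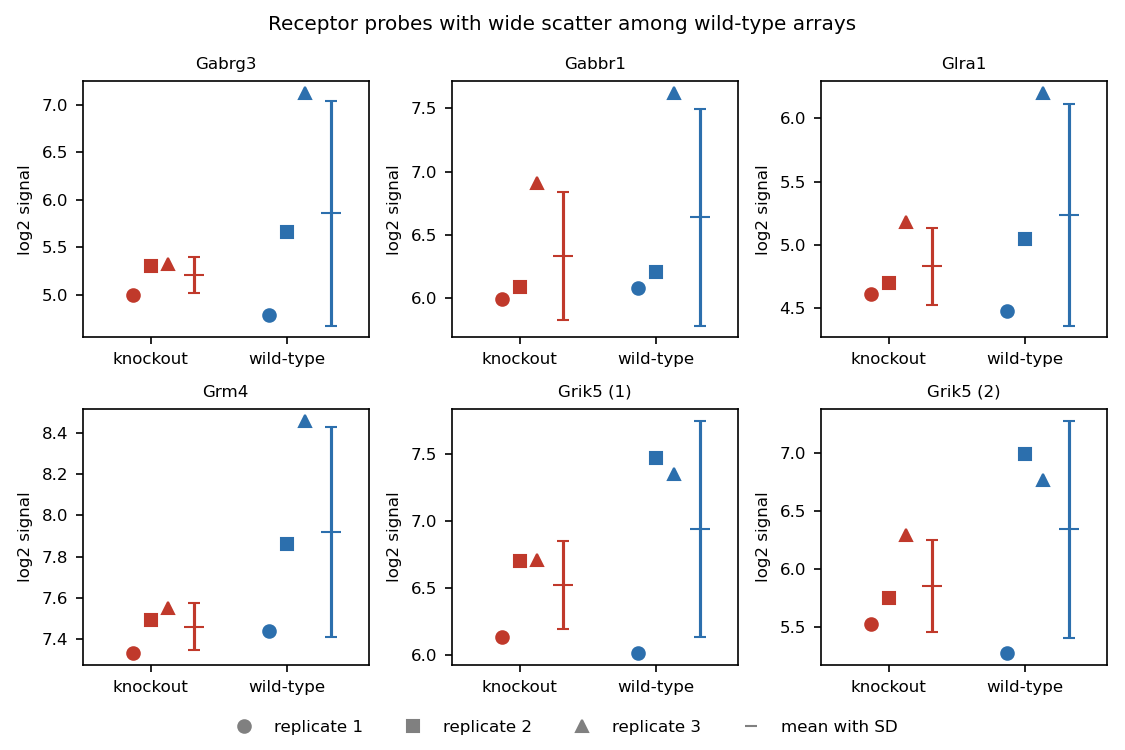
Log2 normalised intensity (y axis, its own range in each panel) of 6 receptor probes with wide wild-type scatter, by group (x axis), with 1 point per array and bars for the mean with SD. Wild-type array 3 is the highest point for Gabrg3, Gabbr1, Glra1 and Grm4, and wild-type array 1 the lowest for both Grik5 probes.

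Proteins that traffic, anchor or modify these receptors were examined as lists of 50 genes in all, of which 42 matched a symbol and 32 had a tested probe. None of their 55 tested probes was called by limma, 5 had an unadjusted p under 0.05 (9.09%, beside 11.7% of all tested probes), and differences ran from -0.77 to 0.78 around a median of -0.07. By list, 0 of 21 AMPA receptor partner, 0 of 3 kainate receptor partner, 0 of 20 glutamate scaffold, 0 of 10 GABA-A and glycine receptor partner and 0 of 1 GABA-B receptor partner probes passed.

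The 5 partner probes with an unadjusted p under 0.05 were those of Shank3, Dlg3, Gabarapl1, Cacng5 and Cacng3. Shank3, a postsynaptic scaffold, read 6.76, 6.84 and 6.60 on knockout arrays, against 6.87, 7.77 and 7.87 on wild-type arrays, without overlap (-0.77, limma adjusted p = 0.285). It became the one called partner without wild-type replicate 1 (-1.09, adjusted p = 0.0404). Dlg3, which encodes the NMDA receptor scaffold SAP102, read 9.09, 9.12 and 8.88 on knockout arrays, against 9.28, 9.67 and 9.71 on wild-type arrays (-0.52, adjusted p = 0.302).

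Among AMPA receptor auxiliary subunits, a Cacng5 probe read 10.47, 10.60 and 10.46 on knockout arrays, against 10.70, 11.13 and 11.12 on wild-type arrays (-0.48, limma adjusted p = 0.342). The other tested Cacng5 probes differed by -0.49 and 0.04 (adjusted p = 0.437 and 0.969), with overlapping groups. A Cacng3 probe had a positive difference, at 7.05, 7.12 and 7.52 on knockout arrays, against 6.60, 5.76 and 7.01 on wild-type arrays (0.78, adjusted p = 0.365). The other tested Cacng3 probe differed by 0.35 (adjusted p = 0.644), with overlapping groups. On the inhibitory side, Gabarapl1, a relative of the GABA-A receptor trafficking protein GABARAP, read 11.58, 11.63 and 11.69 on knockout arrays, against 11.33, 11.13 and 11.18 on wild-type arrays (0.42, adjusted p = 0.334). Groups did not overlap for the Cacng5, Cacng3 and Gabarapl1 probes whose readings are given. The same held for 11 of the 55 partner probes in all (beside 18.1% of all tested probes), but none passed the threshold. One of the 11, a glutamate scaffold probe detected on 0 knockout and 3 wild-type arrays, entered the test through the wild-type arrays alone. The filter fixed its direction. Gphn, encoding gephyrin, the scaffold of glycine and GABA-A receptors, had 4 tested probes with differences from -0.20 to 0.24, and Neto2, a kainate receptor auxiliary subunit, had 0.31 and 0.15.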

How the data were processed

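Retinal total RNA of 3 knockout and 3 wild-type samples was hybridised to Illumina BeadChips. For every probe the deposited table holds, array by array, a raw intensity and a detection p-value. The authors' normalised intensity table was an alternative and the source of the marker sums. GenomeStudio is named in the submitters' processing notes, with no version there. Raw intensities were background-corrected and quantile-normalised with limma's neqc (offset 16), with the detection p-values standing in for control probes. Probes with a detection p under 0.05 on at least 3 arrays (19921 of 45281) were tested with lmFit and eBayes, two-sided, with Benjamini-Hochberg adjustment at 0.05 (limma 3.58.1, R 4.3.3, matplotlib 3.10.9), and the code was tested on simulated data. Of all probes 34885 had 1 gene symbol, 18 several and 10378 none. Except in marker sums, probe pairs and brightness order within a gene, probes were kept separate and no level was set against another probe's. The number of arrays limits the precision. All receptor genes could be named, with partner and marker genes past the threshold or among the 3 smallest p-values of their list, and Vldlr. The members and lists were chosen with earlier results of these data known. RefSeq names and gene order came from GRCm38.p6. Of the receptor probes, 68 carried a RefSeq accession of their gene and 17 did not. Alternatives covered the normalisation, offset, filter, probe choice, variance model, array weights, threshold and each array left out. The deposited files give no slide, so a slide block was not run.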

Additional observations from a re-analysis of the deposited data

How the results depend on the processing

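The Grin2b call set the count of receptor probes past the threshold, which was 1. It was 0 with quantile normalisation of raw signal, median scaling, the authors' normalised table, an offset of 50, no filter on dim probes, and without knockout replicate 1 and wild-type replicate 3 together. It was 1 with the strict filter, the brightest probe for each gene, trended and robust variance, array weights, and an adjusted p under 0.10, where it could not fall. Leaving out each array in turn gave 0 to 1 receptor probes, 0 to 1 partner probes and 202 to 382 of all tested probes. The count over all tested probes was 435; it was 271 with median scaling, 223 on the authors' table, 920 with array weights and 212 with that pair of arrays left out. The number in the sample title recurs in 2 knockout and wild-type pairs, whose deviations from the group means correlated at -0.017 and -0.275, so it was not taken as pairing the samples; with it as a replicate block the counts were 0 receptor, 0 partner and 282 of all probes. Of the 41 receptor probes, 22 passed the filters of all 18 alternatives and the others were run in at least 12. In those run, 23 kept their sign (11 of them run in all 18), 18 changed sign in some while not called, and 0 probes other than that of Grin2b were called in any alternative. Vldlr's brightest probe lost its call without knockout replicate 1 (-1.12, limma adjusted p = 0.0719), without knockout replicate 2 (-1.15, adjusted p = 0.0724) and under median scaling (0.0631), the authors' table (0.125), the pair of arrays left out (0.0864) and the block (0.113). The cause of these losses was not tested. Low signal over background limits the dim probes, and 44 of 85 receptor probes were not tested.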
